A study of Mus musculus with 36 samples.

Results

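The leukocyte adhesion molecules Icam1 and Vcam1 were 2 of the 53421 genes in the count table, taken by gene name. Both passed the filter on low counts in every comparison. Transcripts were measured by poly(A) RNA sequencing in a conditionally immortalised line of wild-type mouse fibroblast-like chondrocytes, transfected with a pool of siRNAs against Ift88 (IFT88siRNA) or with a non-targeting pool (NT). The labels give 50 nM siRNA, which differs from the dose in the study's methods. Ift88 encodes a carrier protein of the intraflagellar transport that builds primary cilia. Each transfected group was sampled in medium only (0 h) and after 1, 2, 4, 8 and 24 h of IL-1β at 10 ng/ml, a cytokine that drives inflammation and matrix loss in cartilage. There were 3 libraries in each of the 12 conditions and 36 in all, with total counts from 19337022 to 38304127. The labels do not say that replicates were separate cultures, so the p-values measure only the spread between these libraries, which may be technical, and all come from 1 cell line.

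ICAM1 and VCAM1 are membrane proteins of the immunoglobulin superfamily. ICAM1 is a ligand of the β2 integrins LFA-1 and Mac-1, and VCAM1 is a ligand of the α4 integrins, so that together they hold leukocytes on endothelium and on stromal cells. Cytokines that activate NFκB raise both transcripts in many cell types, fibroblasts of the joint included. The transcripts were measured here, and protein at the cell surface was not.

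In the annotation of mouse build GRCm38, Icam1 (ENSMUSG00000037405) is a protein-coding gene on chromosome 9 from 21015985 to 21028817, on the forward strand, with 7 exons in its longest coding transcript of 2535 bases. Vcam1 (ENSMUSG00000027962) is a protein-coding gene on the reverse strand of chromosome 3 from 116109949 to 116129688, with 9 exons in its longest coding transcript of 3469 bases. Each is overlapped by 1 antisense gene, Gm47079 over Icam1 and Gm43109 over Vcam1, and reads of a gene and its antisense partner cannot be told apart without strand. Between 2 and 30 counts a library were assigned to Gm47079 and at most 3 to Gm43109, against at least 74 to Icam1 and at least 248 to Vcam1. Icam4 and Icam5 lie on the same strand beyond the end of Icam1, starting 555 and 3255 bases after it.

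A RefSeq promoter entry was found for 1 of the 2 members, Icam1. The entry is shown because transcription factors bind near the start of a gene, and its letters can be read beside the response. It covers chr9:21015690-21015989 of GRCm38.p6 on the forward strand, from 250 bases before the RefSeq start at 21015940 through the 50 bases that begin with it. Capitals mark, from left to right, the letters GGAANTTCC (a palindromic form of a κB element), TTCNNNGAA (the form of a STAT element) and TATAAA.

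Icam1 promoter: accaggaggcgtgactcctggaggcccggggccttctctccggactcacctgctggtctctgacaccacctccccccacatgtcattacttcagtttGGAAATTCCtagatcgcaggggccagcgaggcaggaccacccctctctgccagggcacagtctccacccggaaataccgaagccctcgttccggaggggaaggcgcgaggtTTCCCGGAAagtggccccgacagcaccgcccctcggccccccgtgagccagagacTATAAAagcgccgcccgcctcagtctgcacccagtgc

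The 3 capitalised stretches begin at -153, -42 and 13, with the RefSeq start base counted as 0. The annotated gene start at 21015985 lies further downstream than the RefSeq start, so that TATAAA falls before the former and after the latter. GGAANTTCC was present in 0.928% of the 32851 promoters in the table, TTCNNNGAA in 8.30% and TATAAA in 13.6%. GGGCGG, the GC box, occurred 2 times in the Icam1 entry on the reverse strand and in 35.7% of promoters. The longer NFκB consensus (4.51% of promoters) and the AP-1 letters TGANTCA (7.81%) had no match in the Icam1 entry. Both strands were searched, no matches to these motifs overlapped in the Icam1 entry, and a match is a description of letters and not a site in use.

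Before the members, Ift88 itself was read in each library. In CPM (counts scaled to library size), Ift88 lay between 5.83 and 10.2 in the 18 NT libraries and between 1.43 and 3.10 in the 18 IFT88siRNA libraries, so the groups did not overlap. IFT88siRNA libraries held from 22.9% to 36.1% of the NT level, depending on the time. At 8 h the IFT88siRNA libraries were less alike, with Ift88 at 1.53, 1.59 and 3.0001 CPM. All 10 fibroblast markers exceeded 1 CPM in at least 1 library, and 6 of 10 chondrocyte markers did. Sox9, the transcription factor of the chondrocyte lineage, lay between 12.1 and 79.6 CPM, while Acan, which encodes the main cartilage proteoglycan, was at most 0.711 CPM. The 10 endothelial markers summed to between 3.21 and 6.09 CPM, with Pecam1 at most 0.408, Cdh5 at most 0.321 and Egfl7, the highest, between 1.42 and 4.27. The 10 leukocyte markers summed to between 2.87 and 7.37 CPM, with Ptprc (CD45) at most 0.211, Cd3e at 0 in all libraries, and Itgb2, S100a8 and Lyz2 reaching 5.28, 3.96 and 3.14. At 4 h the endothelial sum was at most 4.25 CPM and the leukocyte sum at most 4.31 CPM, and the part of these cells in the results was not tested. In bulk RNA, fewer cells of a type and less RNA in each cell cannot be told apart.

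Both adhesion molecules were higher by 1 h of IL-1β, both were highest at 4 h, and both were still above their 0 h level at 24 h. Medium-only libraries were made at 0 h alone, so IL-1β and time in culture cannot be told apart in these changes. In NT cells Icam1 stood at 3.72, 3.30 and 3.59 CPM at 0 h. At 1 h the 3 libraries held 37.9, 28.3 and 42.1 CPM. At 2 h they held 129, 101 and 128 CPM, and at 4 h 147, 129 and 154 CPM. All treated libraries up to this time lay above all untreated ones, and the 2 h and 4 h libraries overlapped. By 8 h the level was 29.7, 26.1 and 29.4 CPM. At 24 h it was 10.0, 9.48 and 8.98 CPM, which was still above all 0 h libraries. In the 18 NT libraries the Icam1 mean went from 3.54 ± 0.216 CPM (SD, n = 3) at 0 h to 143 ± 13.2 CPM at 4 h, a log2 fold change of 5.35 ± 0.14 (SE; adjusted p = 1.49e-20). The change from 0 h was 3.34 ± 0.15 at 1 h, 5.07 ± 0.14 at 2 h, 3.01 ± 0.16 at 8 h and 1.42 ± 0.18 at 24 h on the log2 scale, and all passed an adjusted p of 0.05 with a change over 1.5-fold.

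Compared with Icam1, the log2 change of Vcam1 was smaller at 1 h and 2 h and larger at 4 h. At 0 h NT libraries held 11.4, 12.4 and 10.999 CPM of Vcam1. The values were 63.5, 50.9 and 72.4 CPM at 1 h and 247, 209.6 and 276 CPM at 2 h. At 4 h they reached 731, 688 and 699.7 CPM, above every library of any other time. They were 153, 139.8 and 155 CPM at 8 h and 42.8, 42.5 and 36.3 CPM at 24 h. No library of an IL-1β time overlapped the 0 h libraries. The mean went from 11.6 ± 0.726 CPM (SD, n = 3) at 0 h to 706 ± 22.5 CPM at 4 h, a 61.1-fold change (log2 5.93 ± 0.12 SE; adjusted p = 7.91e-23). The log2 change was 2.42 ± 0.12 at 1 h, 4.39 ± 0.11 at 2 h, 3.69 ± 0.11 at 8 h and 1.80 ± 0.12 at 24 h, and all passed both limits. As background, the share of all 16048 genes tested that rose past both limits was 9.22% at 1 h, 13% at 2 h, 16.3% at 4 h, 11.8% at 8 h and 6.61% at 24 h. At 2 h only 0.187% of genes had a larger log2 change than Icam1, and at 4 h 0.318% had a larger one than Vcam1.

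In IFT88siRNA cells Icam1 was 3.20, 3.34 and 2.61 CPM at 0 h. The levels after IL-1β were 12.4, 10.3 and 12.3 CPM at 1 h, 61.5, 49.3 and 64.4 CPM at 2 h and 72.9, 90.7 and 82.8 CPM at 4 h. They then went down to 17.9, 16.7 and 15.1 CPM at 8 h and 7.68, 8.43 and 7.96 CPM at 24 h. Every library from 1 h to 8 h lay below every NT library of its time, and so did the 24 h libraries, while those at 0 h overlapped. In edgeR the 24 h difference between the groups did not pass (adjusted p = 0.105). The share of all genes whose groups separate in this way was not counted, here or for the separations given further on. A separation alone therefore says little. The largest change from 0 h was again at 4 h, 26.9-fold (log2 4.75 ± 0.12 SE; adjusted p = 2.00e-20). It was 1.92 ± 0.14 at 1 h, 4.26 ± 0.12 at 2 h, 2.43 ± 0.13 at 8 h and 1.40 ± 0.14 at 24 h on the log2 scale.

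Vcam1 in IFT88siRNA cells was 11.5, 11.2 and 12.2 CPM at 0 h, within the range of the NT libraries. It was 30.7, 23.2 and 30.6 CPM at 1 h, 148, 117 and 141 CPM at 2 h and 486, 564 and 522 CPM at 4 h. At 8 h it was 121, 107 and 101 CPM and at 24 h 37.7, 38.8 and 34.9 CPM. From 1 h to 8 h no IFT88siRNA library reached the lowest NT library of its time, and at 24 h the groups overlapped. The change from 0 h was 45.1-fold at 4 h (log2 5.49 ± 0.11 SE; adjusted p = 2.49e-22), and 1.27 ± 0.11, 3.53 ± 0.10, 3.23 ± 0.10 and 1.68 ± 0.11 on the log2 scale at 1, 2, 8 and 24 h. All changes of both genes from 0 h in IFT88siRNA cells passed both limits, where 6.82%, 12.4%, 16%, 10.5% and 6.36% of the 16129 genes tested rose at the successive times. In each group the 5 comparisons share the same 0 h libraries.

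**Figure D1:**
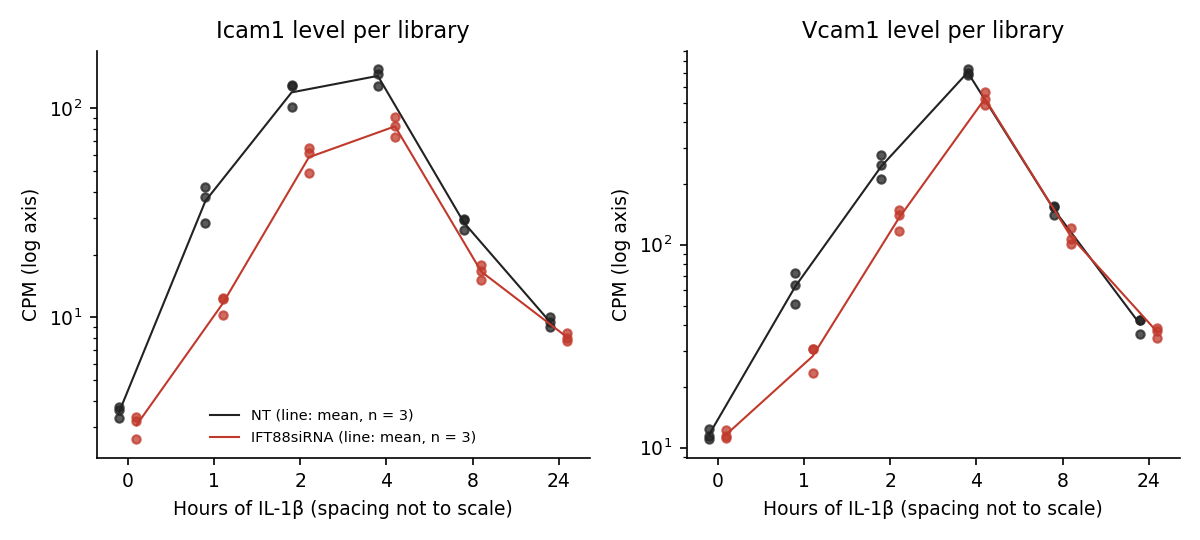
Levels of Icam1 (left) and Vcam1 (right) in CPM on a log axis against hours of IL-1β, with 1 point a library and lines through the means of 3 libraries. Both genes are highest at 4 h in both groups, and the IFT88siRNA points lie below the NT points from 1 h to 8 h.

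**Figure D2:**
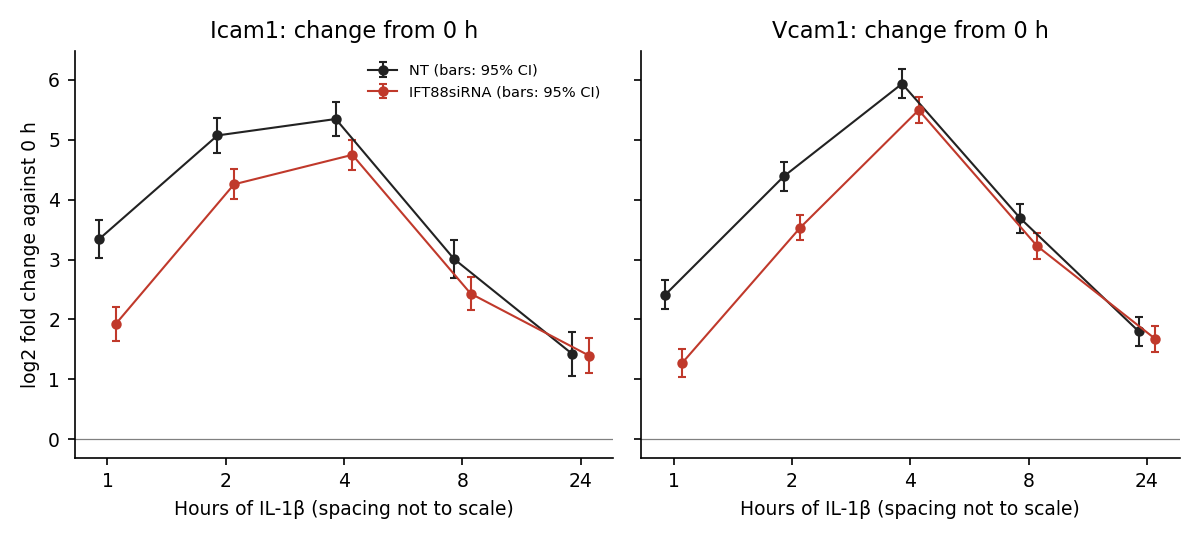
Log2 fold change of Icam1 (left) and Vcam1 (right) against the 0 h libraries of the same group, with 95% confidence intervals. The NT and IFT88siRNA values are furthest apart at 1 h (3.34 and 1.92 for Icam1, 2.42 and 1.27 for Vcam1) and close together at 24 h.

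The direct comparison of IFT88siRNA with NT at each time asks how much of each transcript the depleted cells held. Before IL-1β neither gene differed past the limits. The log2 difference of Icam1 at 0 h was -0.21 (95% CI -0.50 to 0.08; adjusted p = 0.310). On the TPM scale Icam1 at 0 h lay between 3.17 and 3.79 in NT and between 2.34 and 2.90 in IFT88siRNA libraries, without overlap, and its adjusted p over all alternatives ran from 0.171 to 0.690. The log2 difference of Vcam1 was 0.00046 (95% CI -0.17 to 0.17; adjusted p = 0.998), and its sign turned in other scalings.

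At 1 h both genes were lower in IFT88siRNA cells, and the difference was the largest of the time course. Icam1 was at 32.2% of its NT level (log2 -1.64, 95% CI -1.88 to -1.39; adjusted p = 1.94e-07) and Vcam1 at 45.0% (log2 -1.15, 95% CI -1.38 to -0.92; adjusted p = 3.20e-06). At this time 2.47% of the 14797 genes tested were lower past both limits, and 0.0608% had a more negative log2 difference than Icam1. At 2 h Icam1 was at 48.9% (log2 -1.03, 95% CI -1.26 to -0.80; adjusted p = 0.000590) and Vcam1 at 55.2% (log2 -0.86, 95% CI -1.07 to -0.64; adjusted p = 0.00130), against 0.462% of genes called lower. On TPM (transcript abundance corrected for length and library size) with limma, the 2 h differences of both genes kept their size but missed the threshold (adjusted p = 0.0583 for Icam1 and 0.0756 for Vcam1). In each group replicate 2 held the least of both genes at 1 h and 2 h. At 4 h replicate 2 held the most of both in IFT88siRNA cells and the least in NT cells. With replicate number as a block, the SE of the Icam1 difference went from 0.117 to 0.0700 at 1 h. It went from 0.105 to 0.0456 at 2 h and from 0.0716 to 0.0727 at 4 h. Pairing by replicate number was thus not settled for these genes.

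At 4 h and 8 h the pair separated at the 1.5-fold limit. Icam1 was at 57.1% at 4 h (log2 -0.81, 95% CI -0.96 to -0.66; adjusted p = 8.46e-06) and 57.6% at 8 h (log2 -0.80, 95% CI -0.97 to -0.63; adjusted p = 0.000341), and passed both limits. Vcam1 was at 73.9% at 4 h (log2 -0.44, 95% CI -0.55 to -0.33; adjusted p = 0.000130) and 72.3% at 8 h (log2 -0.47, 95% CI -0.61 to -0.33; adjusted p = 0.00312), which passed the adjusted p but not the fold. The share of genes called lower was 0.399% at 4 h and 0.613% at 8 h. Whether the siRNA differences of Icam1 and Vcam1 differ from each other was not tested.

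At 24 h Icam1 was at 84.6% (log2 -0.24, 95% CI -0.42 to -0.06; adjusted p = 0.105) and Vcam1 at 91.5% (log2 -0.13, 95% CI -0.27 to 0.01; adjusted p = 0.275), and neither passed. Among all genes 0.598% were called lower at 24 h and 1.56% at 0 h. In a test over all 6 times together both genes differed between the groups (adjusted p = 8.80e-15 for Icam1 and 1.43e-11 for Vcam1). Of the 16710 genes in that test, 637 were called lower and 231 higher, by the largest of their 6 differences.

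**Figure D3:**
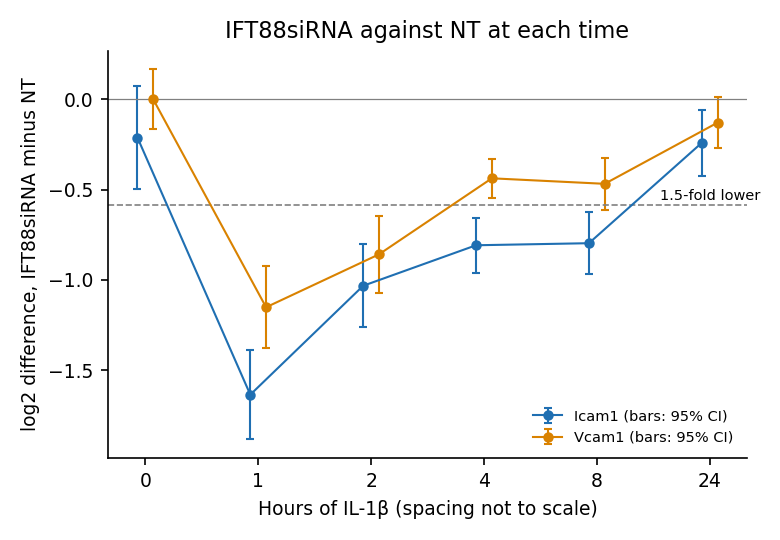
Log2 difference of IFT88siRNA minus NT for Icam1 and Vcam1 at each time, with 95% confidence intervals, and a dashed line at 1.5-fold lower. Both genes are near 0 at 0 h and lowest at 1 h (-1.64 and -1.15), and only Vcam1 lies above the dashed line at 4 h and 8 h. At 24 h they are at -0.24 and -0.13, and the interval of Icam1 stays below 0.

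The change from 0 h was next compared between the groups in 1 model of all 36 libraries. Over the 5 IL-1β times together, the response differed for both genes (adjusted p = 4.43e-05 for Icam1 and 3.26e-05 for Vcam1), as it did for 1.2% of the 16710 genes tested. At 1 h the rise of Icam1 in IFT88siRNA cells was smaller by a log2 difference of -1.42 (95% CI -1.93 to -0.91; adjusted p = 0.000696) and that of Vcam1 by -1.15 (95% CI -1.51 to -0.78; adjusted p = 0.000214), where 0.491% of genes were called in this direction. Without replicate 1 of each condition the Icam1 value was -1.43 and its adjusted p 0.0829, while Vcam1 passed in all 3 sets with a replicate left out.

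At 2 h the smaller rise passed for Vcam1 (-0.86, 95% CI -1.20 to -0.51; adjusted p = 0.00603) and not for Icam1 (-0.82, 95% CI -1.30 to -0.34; adjusted p = 0.0790), beside 0.215% of genes. The Vcam1 call was lost without replicate 1 (-0.92, adjusted p = 0.164) or without replicate 3 (-0.72, adjusted p = 0.125), and Icam1 passed in DESeq2 (-0.81, adjusted p = 0.0137), without a count filter (-0.80, 1.68e-05) and on log2(TPM + 1) (-0.71, 0.0397). At 4 h the values were -0.59 for Icam1 and -0.43 for Vcam1 (adjusted p = 0.276 and 0.263), and at 8 h -0.57 and -0.45 (adjusted p = 0.410 and 0.294). At 24 h they were -0.02 (95% CI -0.55 to 0.51) and -0.13 (95% CI -0.49 to 0.24). The share of genes called lower was 0.269%, 0.203% and 0.0898% at these times, and neither gene was among them.

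Since the gap between the groups looked wider at 1 h than at 4 h, the 2 times were set against each other in the same model, a comparison chosen after the values were seen. The siRNA difference at 4 h was less negative than at 1 h by 0.83 for Icam1 (95% CI 0.51 to 1.15; adjusted p = 0.00605) and by 0.71 for Vcam1 (95% CI 0.42 to 1.01; adjusted p = 0.0109). In this comparison 0.0718% of genes were called higher. Neither gene passed without replicate 1 (adjusted p = 0.267 for both) or without replicate 3 (0.121 for Icam1 and 0.131 for Vcam1).

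The rise between 1 h and 4 h can be read as shares of the 4 h mean. In NT cells Icam1 had reached 25.2% of its 4 h mean at 1 h and 83.4% at 2 h, and in IFT88siRNA cells 14.2% and 71.1%. Vcam1 had reached 8.82% at 1 h and 34.5% at 2 h in NT cells, and 5.37% and 25.7% in IFT88siRNA cells. From 2 h to 4 h Icam1 changed 1.21-fold in NT cells (adjusted p = 0.0128) and 1.41-fold in IFT88siRNA cells (adjusted p = 3.03e-05), both under the 1.5-fold limit. Vcam1 rose 2.92-fold and 3.89-fold over the same interval and passed both limits in each group, as did 16.6% of genes in NT cells and 16% in IFT88siRNA cells.

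The fall after 4 h is given in the same way. At 8 h Icam1 stood at 19.8% of its 4 h mean in NT cells and 20.2% in IFT88siRNA cells, and Vcam1 at 21.1% and 20.8%. The log2 change from 4 h to 8 h was -2.34 ± 0.10 and -2.32 ± 0.10 (SE) for Icam1 in NT and IFT88siRNA cells, and -2.25 ± 0.09 and -2.27 ± 0.09 for Vcam1. All 4 passed, as did 9.93% of genes in NT and 9.96% in IFT88siRNA cells that fell over this interval. At 24 h the shares were 6.63% and 9.76% for Icam1 and 5.74% and 7.08% for Vcam1, still above the 0 h shares of 2.47%, 3.72%, 1.64% and 2.22% in the same order.

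Ordered from lowest to highest, Icam1 in NT cells ran 0, 24, 8, 1, 2 and 4 h, and in IFT88siRNA cells 0, 24, 1, 8, 2 and 4 h. Of the neighbours in these orders, 8 h and 1 h in NT cells overlapped (log2 0.33, adjusted p = 0.0116), as did 2 h and 4 h in NT cells (log2 0.27, adjusted p = 0.0128). Vcam1 ran 0, 24, 1, 8, 2 and 4 h in NT cells and 0, 1, 24, 8, 2 and 4 h in IFT88siRNA cells. There 8 h and 2 h of IFT88siRNA cells overlapped (log2 0.31, adjusted p = 0.00344), and no other neighbours did. The 1 h level thus stood above the 8 h level for Icam1 in NT cells and below it in the other 3 series. For Icam1 the log2 change from 1 h to 8 h was -0.33 in NT and 0.51 in IFT88siRNA cells, both under the 1.5-fold limit. Whether these changes differ between the groups was not tested. In IFT88siRNA cells the steps between 1 h and 24 h were also under this limit (log2 0.53 for Icam1 and 0.40 for Vcam1).

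Levels of the 2 genes can be set against each other only per length, on the TPM scale. At 0 h in NT cells the mean was 3.49 ± 0.312 TPM for Icam1 and 7.11 ± 0.369 TPM for Vcam1 (SD, n = 3). At 4 h it was 103 ± 7.99 TPM and 344 ± 10.1 TPM in NT cells, and 57.7 ± 6.17 TPM and 251 ± 16.6 TPM in IFT88siRNA cells. Vcam1 exceeded Icam1 in TPM in all 36 libraries, but by an amount that moved with time. In NT cells the ratio of Vcam1 to Icam1 TPM was 2.05 ± 0.288 at 0 h, 1.23 ± 0.0288 at 1 h and 1.46 ± 0.0690 at 2 h, then 3.34 ± 0.197 at 4 h, 3.93 ± 0.0806 at 8 h and 3.07 ± 0.214 at 24 h. In IFT88siRNA cells it was 2.47 ± 0.371, 1.67 ± 0.0492, 1.62 ± 0.0511, 4.37 ± 0.201, 4.82 ± 0.237 and 3.31 ± 0.126 at the same times. From 1 h to 8 h the lowest IFT88siRNA ratio was above the highest NT ratio of its time, and at 0 h and 24 h the groups overlapped. With 3 libraries against 3 an exact permutation test cannot go below p = 0.1, and none was run on the ratio.

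**Figure D4:**
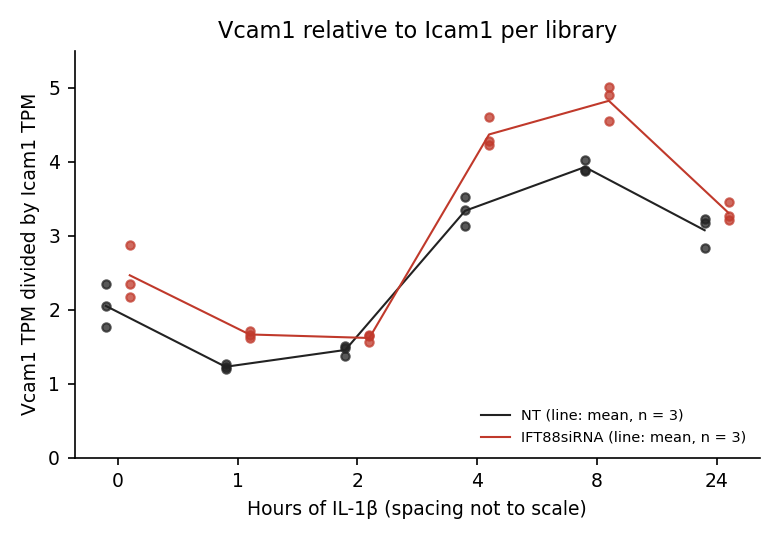
Vcam1 TPM divided by Icam1 TPM in each library against hours of IL-1β, with lines through the means of 3 libraries. The ratio is lowest at 1 h to 2 h (1.23 and 1.46 in NT cells) and highest at 8 h (3.93 in NT and 4.82 in IFT88siRNA cells).

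The genes whose levels ran most like each member were found by Pearson's r of the mean log2 CPM over the 12 conditions, among 11415 genes. For Icam1 these were Mir155hg (r = 0.987), the host transcript of miR-155, Lman1l (0.982), Birc2 (0.974), which encodes the ubiquitin ligase cIAP1, Arf6 (0.973), a small GTPase, and Traf1 (0.970), an adaptor of TNF receptors. Between 0 h and 4 h, Traf1 went from 0.241 to 8.74 CPM in NT cells and from 0.279 to 6.11 CPM in IFT88siRNA cells. For Vcam1 they were Gnl1 (0.989), the chemokine gene Cxcl16 (0.984), Ric8a (0.979), Lman1l (0.979) and Polr3d (0.977). Cxcl16 went from 4.99 to 59.2 CPM between 0 h and 4 h in NT cells and from 5.21 to 51.9 CPM in IFT88siRNA cells. Between the members r was 0.942, which placed Vcam1 at rank 31 for Icam1 and Icam1 at rank 58 for Vcam1. The conditions are means over the same libraries, and the r values describe shape and not size: Birc2 went only from 43.3 to 94.6 CPM in NT cells where Icam1 went from 3.54 to 143.

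Other surface ligands of leukocytes were read from a list of 28 further genes of the immunoglobulin, selectin-ligand and matrix ligand kind. At 4 h, 16.3% of all genes tested rose and 12.4% fell in NT cells, and 16% rose and 13.3% fell in IFT88siRNA cells. Of the list in NT cells, 12 of the 23 tested rose and none fell, with a median log2 change of 0.61 beside -0.02 over all genes, and in IFT88siRNA cells 11 of 21 rose and none fell, with a median of 0.95 beside -0.01. Sele in NT and Selp in IFT88siRNA cells had no count at 0 h, and the medians were the same with these at their lower bound. Thy1 and Fn1 of this list are also among the fibroblast markers. Jam2, a junction protein that binds integrins, rose by 2.67 ± 0.20 (log2 ± SE) in NT and 2.59 ± 0.16 in IFT88siRNA cells. Pvr, the poliovirus receptor of the nectin family, rose by 2.05 ± 0.08 and 2.33 ± 0.08. Cd47, an inhibitory ligand for phagocytes, rose by 1.79 ± 0.05 and 1.70 ± 0.05, and Podxl, a sialomucin at low level, by 1.97 ± 0.34 and 2.90 ± 0.32. Icam5, the neighbour of Icam1 on chromosome 9, rose by 1.27 ± 0.19 and 1.03 ± 0.12. Selp, which encodes P-selectin, went from 0.0285 to 1.76 CPM in NT cells between 0 h and 4 h (log2 5.71 ± 0.52 SE), a log2 change between those of Icam1 (5.35) and Vcam1 (5.93), and was named after its values were seen. Its 0 h level was near the floor, so the size of this change and its place between the members are poorly determined. In IFT88siRNA cells Selp went from no count at 0 h to a mean of 1.04 CPM. At 24 h the list was mixed, with 7 of 23 higher and 5 lower in NT cells, beside 6.61% and 9.71% of all genes. Nectin2 was then higher by 1.86 ± 0.05 and Vcan by 1.11 ± 0.08, while Thy1 and L1cam were lower (log2 -1.08 and -1.03).

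**Figure D5:**
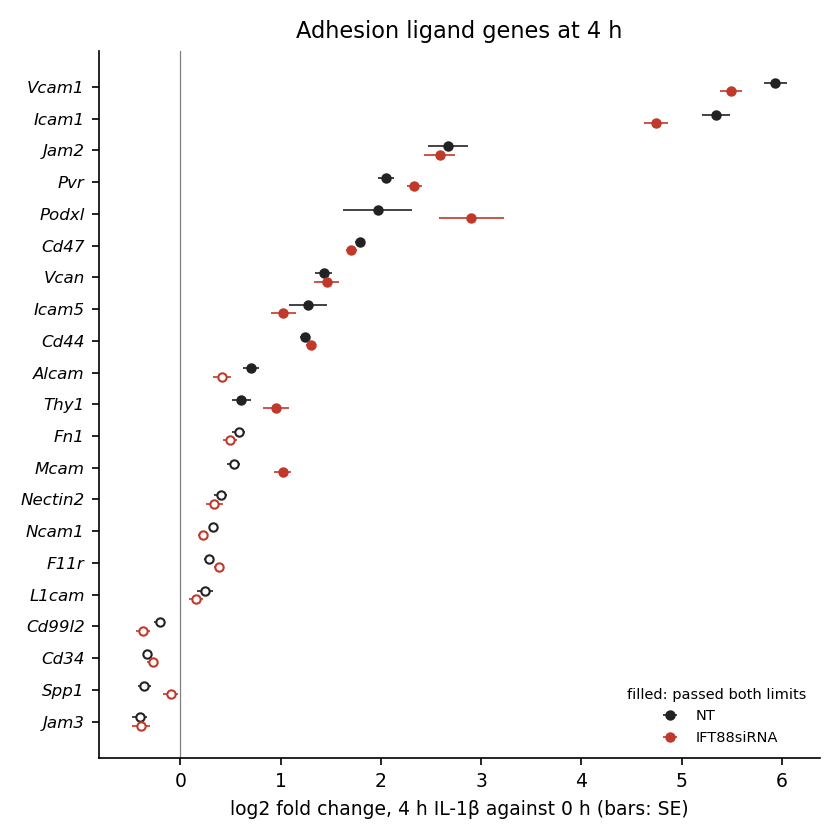
Log2 change from 0 h to 4 h of IL-1β for 21 adhesion ligand genes with a mean of at least 1 CPM and at least 1 count at 0 h, in NT and IFT88siRNA cells, with SE bars and filled points for genes that passed both limits. Of the genes drawn, Vcam1 and Icam1 lie furthest to the right (5.93 and 5.35 in NT cells), ahead of Jam2 at 2.67, and Selp, at 5.71 in NT cells, is not drawn because its 0 h and 4 h means averaged under 1 CPM and it had no count at 0 h in IFT88siRNA cells.

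Between the siRNA groups, 2 of 19 tested ligands were lower in IFT88siRNA cells at 1 h and none was higher, beside 2.47% of all genes lower. At 2 h 1 of 19 was lower (0.462% of all genes), at 24 h 1 of 19 (0.598%), and at 0, 4 and 8 h none. Icam5 was lower at 1 h (log2 -0.82 ± 0.13 SE; adjusted p = 0.000591) and Podxl at 24 h (-0.95 ± 0.27; adjusted p = 0.0389). Sele, which encodes E-selectin, was the other gene at 1 h and is named there after its values were seen. Its counts at 1 h were 24, 17 and 44 in NT and 2, 3 and 4 in IFT88siRNA libraries (log2 -3.46 ± 0.49; adjusted p = 0.000187). At 2 h they were 33, 34 and 44 against 17, 7 and 9 (log2 -1.89 ± 0.30; adjusted p = 0.00843). Sele had no count in any of the 6 libraries at 0 h. Against a floor of 3 counts over the 0 h group, it was at least 28.1-fold higher at 1 h and 33.6-fold higher at 2 h in NT cells, and at least 3.05-fold and 11.1-fold higher in IFT88siRNA cells. These bounds used raw library totals, without the TMM scaling behind the CPM values. In the model of 36 libraries, none of the 23 listed genes tested was called for a different response at any single time. At most 0.491% of all genes were called lower there and 0.108% higher. Without a count at 0 h, Sele has no measured starting level, so this test cannot decide whether its response differed. Icam2, Icam4, Pecam1, Esam, Glycam1 and Cadm1 stayed under 1 CPM in every library, and Icam4 had no count.

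Integrin chains that bind the members, and other adhesion receptors of leukocytes, made up the next list. Of 14 genes listed, Itgal and Itgam (the α chains of LFA-1 and Mac-1), Itga4 (the α4 chain, one that binds VCAM1), Itgax, Itgad, the selectin ligand gene Selplg, the ALCAM receptor gene Cd6 and the PVR receptor gene Cd226 were under 1 CPM in every library. At 4 h none of the 6 tested rose, and 2 fell in NT cells (median -0.44) and 3 in IFT88siRNA cells (median -0.29), beside 12.4% and 13.3% of all genes that fell. Itgb2, the β2 chain, fell between 0 h and 4 h, from 4.60 to 0.997 CPM in NT cells (log2 -2.19 ± 0.24 SE) and from 2.83 to 0.786 CPM in IFT88siRNA cells (-1.83 ± 0.27). Itgb2 was lower in IFT88siRNA cells at 0 h (-0.70 ± 0.15; adjusted p = 0.00205), the only call of this list between the siRNA groups, beside 1.56% of all genes lower. Itgb1, the β1 chain, was the abundant member and rose from 2249 to 3429 CPM at 2 h in NT cells (0.60 ± 0.04).

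Another list put together cytoskeletal anchors of the 2 proteins and membrane proteins such as Pdpn, Cd9 and Cav1. Of 17 listed, 16 were tested, and 6 rose and none fell at 4 h in each group (median log2 change 0.27 in NT and 0.35 in IFT88siRNA cells), beside 16.3% and 16% of all genes that rose. These were Pdpn (log2 1.90 ± 0.06 SE in NT and 1.83 ± 0.06 in IFT88siRNA cells), Actn1, which encodes α-actinin (1.32 ± 0.04 and 1.32 ± 0.05), Msn, which encodes moesin (0.91 ± 0.04 and 1.05 ± 0.05), Rhog, a GTPase (0.87 ± 0.05 and 0.73 ± 0.06), Flna and Cav1. None of the 16 differed past both limits between the siRNA groups at any time. Of all genes, at most 2.47% were called lower and 0.674% higher at a time, so the lack of a call among so few genes says little. Arhgef26 of this list stayed under 1 CPM in every library.

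Proteases that cut adhesion molecules from the surface, with their inhibitor Timp3, made up the last list of 12 genes, of which 10 were tested against 0 h. At 4 h 4 rose in NT cells and 5 in IFT88siRNA cells, and none fell (median log2 change 0.54 and 0.56), beside 16.3% and 16% of all genes that rose and 12.4% and 13.3% that fell. Timp3 rose by 1.38 ± 0.05 (log2 ± SE) and 1.27 ± 0.06, Mmp9 by 1.63 ± 0.25 and 1.90 ± 0.27, and Rhbdf2, a partner of ADAM17, by 0.64 ± 0.09 and 0.88 ± 0.07. Adam17, known to cut VCAM1, was higher at 24 h in NT cells (0.61 ± 0.04). Between the siRNA groups only Adam8 was called, lower in IFT88siRNA cells at 0 h (log2 -0.86 ± 0.08), 2 h (-0.81 ± 0.12), 8 h (-0.69 ± 0.09) and 24 h (-0.63 ± 0.07). The share of all genes called lower at these times was 1.56%, 0.462%, 0.613% and 0.598%. Elane and Ctsg stayed under 1 CPM in every library, and Ctsg had no count.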

How the data were processed

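RNA was sequenced in 36 libraries, 3 in each of 12 conditions. The authors aligned reads to GRCm38 with HISAT2 2.1.0 and deposited raw counts per gene made with featureCounts (Subread 1.6.3, Ensembl annotation); no strand option is stated. The authors also deposited TPM values from Salmon 0.9.1, corrected for GC bias. The members and lists were chosen with earlier results of these data known.

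Counts were tested with edgeR 4.0.16 (R 4.3.3; filterByExpr, TMM, quasi-likelihood F test, two-sided), with Benjamini-Hochberg adjustment over all genes tested; a call needed an adjusted p under 0.05 and a change over 1.5-fold. NT and IFT88siRNA time courses were fitted on 18 libraries each, siRNA comparisons on the 6 libraries of a time, and differences in response on all 36. CPM used TMM-scaled totals. The study's time-course model was not used here. SE is the log2 change over the square root of F. The scripts were tested on simulated data.

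Named genes were Icam1 and Vcam1, Ift88 as a label check, the 5 genes most like each member among those reaching 5 CPM in a condition (log2 CPM with a prior count of 2), and from each list up to 4 called genes a comparison with the largest change and a mean of at least 1 CPM; listed genes under 1 CPM throughout were also named. Alternatives were DESeq2 1.42.0, other scalings, other filters, a replicate block, 1 model of all libraries, limma 3.58.1 on log2(TPM + 1) or log2(TPM + 0.1), and leaving out each replicate. Replicate numbers were not taken as pairs. Cd99 was listed but had no row of its own. A further listed gene is not reported here. Promoters came from RefSeq (GRCm38.p6) and gene models from GENCODE. Counts limit precision most at 0 h, where Icam1 had from 74 to 95 counts a library.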

Additional observations from a re-analysis of the deposited data

Results flagged for a closer look

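Each of these results was picked out because 2 groups of libraries, or 2 times, differed in the same contrast by a test of the difference itself, over all 16710 genes in edgeR. The rise of Icam1 from 0 h to 1 h was smaller in IFT88siRNA than in NT cells by a log2 difference of -1.42 ± 0.25 (SE; adjusted p = 0.000696). That of Vcam1 was smaller by -1.15 ± 0.18 at 1 h (adjusted p = 0.000214) and by -0.86 ± 0.17 at 2 h (adjusted p = 0.00603). In a comparison chosen after the values were seen, the siRNA difference was less negative at 4 h than at 1 h by 0.83 ± 0.16 for Icam1 (adjusted p = 0.00605) and by 0.71 ± 0.14 for Vcam1 (adjusted p = 0.0109).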

How the results depend on the processing

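All 260 alternative values for the changes from 0 h, 65 for each gene and group, kept their direction and passed both limits. The siRNA difference of Vcam1 at 0 h changed sign with RLE size factors (-6.19e-05), upper-quartile scaling (-0.0146), log2(TPM + 1) with or without a filter (-0.12) and log2(TPM + 0.1) (-0.13), and ran from -0.0359 to 0.0531 with a library left out. With limma on log2(TPM + 1), on log2(TPM + 0.1) and on log2(TPM + 1) unfiltered, the 2 h differences lost their calls: -1.01, -1.03 and -1.01 for Icam1 (adjusted p = 0.0583, 0.0608 and 0.140) and -0.87, -0.88 and -0.87 for Vcam1 (0.0756, 0.0748 and 0.164). Unfiltered TPM also lost Vcam1 at 1 h (-1.12, 0.0579) and Icam1 at 4 h (-0.83, 0.108). Without the fold limit, Vcam1 passed at 4 h (-0.44) and 8 h (-0.47).

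For the difference in response, Icam1 at 2 h passed in DESeq2 (-0.81), without a count filter (-0.80, adjusted p = 1.68e-05), with log2(TPM + 1) (-0.71) and with the replicate block (-0.82, adjusted p = 0.0371). Leaving out a replicate gave -1.44 to -1.38 for Icam1 at 1 h (not passing without replicate 1), -0.95 to -0.72 for Vcam1 at 2 h (not passing without replicates 1 or 3) and -0.59 to -0.35 for Vcam1 at 4 h (passing without replicate 2, adjusted p = 0.0317). At 24 h Icam1 turned to 0.0926, 0.153 and 0.0926 with the 3 TPM settings and ran from -0.165 to 0.0452 with a replicate left out (0.0409 without replicate 1 and 0.0452 without replicate 2), and Vcam1 turned to 0.00444 with log2(TPM + 0.1). The 4 h against 1 h comparison of Icam1 missed the threshold in the 3 TPM settings (0.68, 0.76 and 0.68; adjusted p = 0.0748, 0.0604 and 0.128) and that of Vcam1 in unfiltered TPM (0.67, 0.0812); with a replicate left out they ran from 0.74 to 0.94 and from 0.64 to 0.84. The causes were not tested.

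Across genes, deviations of same-numbered libraries at each time correlated at -0.13 to 0.22 (median -0.0074), with 2 of 18 over 0.1, which cannot exclude pairs. Differently numbered libraries of the same time correlated at -0.30 to 0.32, a range that holds that of the same-numbered ones. The replicate block raised the genes called between siRNA groups at 2 h from 73 to 115, and changed no member's call but that of Icam1 above. The counts were 341, 393, 73, 64, 105 and 175 genes at 0, 1, 2, 4, 8 and 24 h, against 169, 217, 70, 34, 98 and 116 in DESeq2, 123, 135, 28, 24, 36 and 61 with log2(TPM + 1), 75, 51, 11, 13, 22 and 34 with unfiltered TPM, and 2979, 2808, 407, 570, 644 and 1318 without the fold limit. With log2(TPM + 0.1) they were 143, 133, 28, 25, 36 and 65. At 2, 4 and 8 h they were 137, 100 and 245 without a count filter, and at 2 h and 8 h 142 and 231 in 1 model of all libraries. The 1 h count became 217 without IFT88siRNA replicate 1 and 230 without NT replicate 3. At 2 h it became 208 without NT replicate 2, 28 and 41 without NT replicates 1 and 3, and 33 and 22 without IFT88siRNA replicates 1 and 2. At 4 h it became 140 without IFT88siRNA replicate 3, 23 without IFT88siRNA replicate 1 and 36 without NT replicate 3. At 24 h it became 103 without IFT88siRNA replicate 2. Shares of genes called move likewise. The 8 h count was 583 without IFT88siRNA replicate 3, which had the most Ift88 of its group, while Icam1 and Vcam1 at 8 h ran from -0.85 to -0.74 and from -0.53 to -0.42 over the left-out libraries. Differences in response fell from 100, 41, 52, 46 and 22 genes at the successive times to 15, 10, 8, 27 and 8 without replicate 1. They were 396, 208, 198, 166 and 57 without the fold limit, 58 and 23 at 1 h and 2 h with log2(TPM + 1), and 85 and 40 at 2 h and 24 h without a count filter. Calls against 0 h were 2618 to 4602 genes in NT and 2295 to 4722 in IFT88siRNA cells, and 7206 to 9775 and 6419 to 9649 without the fold limit.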
